A study of Mus musculus with 6 samples.

Results

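This report describes the long ends of brain miRNAs: read sequences that carried a miRNA label, were at least 24 nucleotides (nt) long, and had a mean of at least 1 RPM over the 6 libraries. RPM scales each read by the total of its library. The members were selected on these measured lengths and levels, so their length and abundance are a description. The rule found 1716 of the 143934 read sequences in the table. They came from 231 of the 1091 miRNA labels and held 36098 RPM in all, or 92.8% of the RPM of all 19059 miRNA reads of that length.

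RNA came from the cortex with the hippocampus of 2-month-old (2M, n = 3) and 18-month-old (18M, n = 3) male C57BL/6J mice, labelled BL6, with no transgene or treatment. Ago proteins were pulled down with a GW182 peptide, so the reads are RNAs bound to Argonaute, called R-sRNAs, and only RNA of 19 to 35 nt was cut from the gel. The libraries held 19272046 to 25080484 reads, which puts 3 reads, taken here as the floor, at 0.12 to 0.156 RPM. In bulk tissue, fewer cells of a type and less RNA per cell cannot be told apart.

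A miRNA is cut from a hairpin RNA by the nucleases Drosha and Dicer, and its 5′ end sets the seed by which it finds targets. The 3′ end is more variable. A read can be longer than the annotated miRNA because the cut lay further along the hairpin, which leaves a templated end, or because terminal nucleotidyltransferases such as TUT4, TUT7 and TENT2 added U or A after the cut, which leaves an untemplated tail. Such variants are called isomiRs, and 3′ additions are known to influence the stability of a miRNA.

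The mature sequences of miRNAs with many long reads, and of relatives with the same seed and few, are shown first, from RefSeq on GRCm38.p6, with the seed (bases 2 to 8) in capitals and grouped by shared seed. RefSeq gave a mature sequence for 201 of the 231 labels.
miR-30a-5p: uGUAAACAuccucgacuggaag
miR-30c-5p: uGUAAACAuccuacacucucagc
miR-30e-5p: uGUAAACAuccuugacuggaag
miR-384-5p: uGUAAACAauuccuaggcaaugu
miR-181a-5p: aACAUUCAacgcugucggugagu
miR-181b-5p: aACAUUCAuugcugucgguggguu
miR-181c-5p: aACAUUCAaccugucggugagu
miR-181d-5p: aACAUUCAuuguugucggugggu
miR-125a-5p: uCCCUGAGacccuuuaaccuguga
miR-125b-5p: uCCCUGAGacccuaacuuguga
miR-7a-5p: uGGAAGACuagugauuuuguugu
miR-7b-5p: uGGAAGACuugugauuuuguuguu
miR-132-3p: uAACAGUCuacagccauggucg
miR-212-3p: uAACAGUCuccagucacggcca
miR-138-5p: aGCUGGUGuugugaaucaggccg
miR-342-3p: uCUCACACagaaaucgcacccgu

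The long reads themselves follow, written as DNA as in the deposited table. Capitals mark the bases that are not part of the annotated mature sequence. The first set shows the reads in which those bases match the hairpin.
miR-30c-5p, 24 nt: tgtaaacatcctacactctcagcT
miR-30e-5p, 24 nt: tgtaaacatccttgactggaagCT
miR-30a-5p, 24 nt: tgtaaacatcctcgactggaagCT
miR-153-3p, 24 nt: ttgcatagtcacaaaagtgatcAT
miR-342-3p, 24 nt: tctcacacagaaatcgcacccgtC
miR-222-3p, 24 nt: agctacatctggctactgggtctC
miR-181a-5p, 25 nt: aacattcaacgctgtcggtgagtTT
miR-7a-5p, 24 nt: tggaagactagtgattttgttgtT
miR-451a, 26 nt: aaaccgttaccattactgagttTAGT

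The second set shows reads whose last base or bases do not match the hairpin, which are the tailed reads.
let-7b-5p, 24 nt: tgaggtagtaggttgtgtggttAT
let-7b-5p, 24 nt, second read: tgaggtagtaggttgtgtggttTT
miR-26a-5p, 24 nt: ttcaagtaatccaggataggctAT
miR-26a-5p, 24 nt, second read: ttcaagtaatccaggataggctTT
miR-200a-3p, 24 nt: taacactgtctggtaacgatgtTA
miR-429-3p, 24 nt: taatactgtctggtaatgccgtAG
miR-9-5p, 24 nt: tctttggttatctagctgtatgaA
miR-138-5p, 26 nt: agctggtgttgtgaatcaggccgTAT

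The third set shows reads that are long because the annotated miRNA is long, so that they hold no capital.
miR-125a-5p, 24 nt: tccctgagaccctttaacctgtga
miR-182-5p, 25 nt: tttggcaatggtagaactcacaccg
miR-541-5p, 25 nt: aagggattctgatgttggtcacact

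Most members were only a little longer than a usual miRNA. Of the 1716 sequences, 1273 were 24 nt, 350 were 25 nt, 75 were 26 nt, 17 were 27 nt and 1 was 28 nt long. Their abundance was uneven. A total of 287 members reached 10 RPM and held 89% of the members' RPM, 52 reached 100 RPM and held 69.3%, and the median of the member means was 2.4 RPM. The 10 labels with the most long reads held 56.1%. All but 1 member, 1715, had a read in each of the 6 libraries. At the threshold, a miR-221-3p read of 1 RPM and a let-7b-5p read lay just inside, and a miR-26a-5p read of 0.997 RPM and a miR-222-3p read of 0.999 RPM lay just outside. The most abundant 24 nt read, of miR-30c-5p, had a mean of 4899 RPM, against 13578 RPM for the most abundant 23 nt read, of miR-9-5p.

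Long reads were a small part of the miRNA reads, with no difference between the ages past the spread of the libraries. They made up 3.94%, 3.62% and 3.77% of miRNA reads in the 2M libraries and 3.57%, 3.91% and 3.76% in the 18M libraries, so the ages overlapped. In the smallest library, 18M replicate 1, the share of 3.573% had a Wilson 95% interval of 3.564% to 3.581%. The interval speaks for counting error alone and takes every read as independent. The paper's methods name no molecular identifiers, and the part of PCR copies in the counts was not tested. The difference, 18M minus 2M, was -0.0282 percentage points with an exact two-sided permutation p of 0.7, in a design whose smallest possible p is 0.1. The sign of this difference turned when 2M replicate 1 (0.0533) or 18M replicate 1 (0.058) was left out. Of 14 measures taken per library, including length, last base, arm and kind of end, none separated the ages, and Benjamini-Hochberg adjusted exact permutation p values ran from 0.56 to 0.9.

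Reads were compared with the hairpins of their label to separate templated from untemplated ends. A hairpin was at hand for 191 labels, with 1393 members and 85.2% of the members' RPM. Of these, 257 members with 20170 RPM lay wholly in the hairpin, and 821 members with 9818 RPM had a 3′ tail. Templated reads thus took 65.6% ± 0.966 (SD over 6 libraries) of the matched RPM and tailed reads 31.9% ± 0.958. A further 274 members, with 673 RPM, carried 1 or more added bases at the 5′ end, 22 had additions at both ends, 13 ran past the end of the known hairpin and 6 had a mismatch inside. A tail base that equals the next hairpin base is counted as templated. A sequencing error in the last 4 bases can be counted as a tail, and one in the first 4 bases as a 5′ addition.

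Tailing was more frequent the longer the read. Part of this rise follows from the length classes, since reads of 20 to 23 nt include annotated forms, which hold no added base. In reads of 20 to 23 nt, 9.56% ± 0.603 of the matched RPM was tailed. The share was 30.3% ± 1.07 at 24 nt, 36% ± 0.564 at 25 nt, and 76.3% ± 6.96 at 26 nt or more. At that length whole-hairpin reads made up 11.8% to 33.4%, depending on the library, and came from 7 sequences, among them the 26 nt read of miR-451a. The 5′ end was far less variable, since 96% of the matched RPM began at the annotated first base.

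Templated ends of the members mostly went on by 1 or 2 bases, which follows in part from the limit of 24 nt. A miRNA annotated at 23 nt reaches that limit only with at least 1 more base. One annotated at 22 nt needs at least 2. Whole-hairpin reads that ended 1 base past the annotated end held 33.2% of the matched RPM and those that ended 2 bases past it held 21.5%. Ends 3 bases on held 0.952%. Another 66 whole reads, with 9.48% of the matched RPM, ended at or before the annotated end. Of the labels with a long read, 18 were annotated at 24 nt or more, and their 95 members held 3257 RPM. The main ones were miR-125a-5p with 1643 RPM, miR-182-5p, a miRNA of the sensory miR-183 cluster, with 738.4 RPM, miR-181b-5p with 410.2 RPM, and miR-541-5p with 170.6 RPM.

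Untemplated tails consisted of U, read as T, and A. The single T was the most abundant tail, with 31.3% of the tailed RPM, followed by A with 22.7%, AT with 14%, AA with 8.87% and TT with 7.52%. Tails of only A and T took 91.3% (90.4% to 92.5% over the libraries). A single base was added in 57.9% of the tailed RPM, 2 bases in 36.9% and 3 bases in 4.87%. These lengths also depend on the limit of 24 nt, which the templated part and the tail must reach together. The tail AG took 1.46% ± 0.0579 at 2M and 1.99% ± 0.262 at 18M. It is the ending of the miR-429-3p read described below, and this difference was not tested.

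By last base, 878 members ended in T, 552 in A, 187 in G and 99 in C. In RPM, T took 25788.0, 23463.0 and 23955.4 in the 2M libraries and 23230.1, 25317.5 and 25736.8 in the 18M libraries. Reads ending in A took 6977 to 8341 RPM, those ending in C 1867 to 2515 RPM, and those ending in G 1334 to 1728 RPM. As a share of the long reads, T was at 67.3% ± 1.11 at 2M and 68.9% ± 2.17 at 18M (exact permutation p = 0.5). Templated long reads ended in T in 72.6% of their RPM and tailed reads in 57.6%, while A closed 13.8% of the templated and 36.1% of the tailed RPM.

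Long reads, pooled over miRNAs, differed in their last base from the pooled shorter reads of the same labels. RPM was summed over labels, so the differences also depend on which miRNAs hold the long and the shorter reads. T closed 68.1% of long and 47.8% of shorter reads, a difference of 20.3 ± 1.42 percentage points (SD, 6 libraries). G closed 4.41% of long and 16.2% of shorter reads, a difference of -11.7 ± 1.35. Both had the same sign in all 6 libraries, with an exact sign-flip permutation p of 0.031, the smallest that 6 pairs allow. Without the 5 miRNAs with the most long reads the T difference was 8.97 and the G difference -11. The differences for C, -5.89, and for A, -2.64, had the same exact permutation p of 0.031, but rested on those 5 miRNAs: without them they were 1.72 and 0.363.

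The share of long reads was set apart by miRNA far more than by age. For each label, it is the RPM of the members divided by all RPM of the label. Among the 182 labels with a member and at least 100 RPM, the median share was 2.1%, and 34 labels were over 10%. Another 91 labels of at least 100 RPM had no member. The highest mean shares were those of miR-30c-5p at 41.5%, miR-7a-5p at 41.5%, miR-342-3p at 39.4%, miR-7b-5p at 39.3% and miR-361-3p at 37%. The lowest were those of miR-101a-3p at 0.0198%, miR-126a-3p, an endothelial miRNA, at 0.0222%, miR-101b-3p at 0.0406%, miR-129-2-3p at 0.0454% and miR-376a-3p at 0.0628%. Each of the last 5 had a single member of 1.1 to 2.14 RPM. miR-101a-3p was an abundant miRNA with 10671 RPM in all. The limit of 24 nt was the same for every label, so these shares also depend on annotated length. miR-361-3p is annotated at 25 nt, miR-7b-5p at 24 nt and miR-101b-3p at 19 nt.

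miRNAs with the same seed could differ widely in their long reads, in pairs chosen after their values were seen. The miR-30 family, whose members share a seed, ran from 41.5% for miR-30c-5p, 25% for miR-30e-5p and 19.4% for miR-30a-5p down to 2.04% for miR-384-5p and 0.559% for miR-30b-5p. miR-30b-5p was not rarer than its relatives, at 7584 RPM against 7288 RPM for miR-30a-5p. miR-125a-5p had 16.9% and miR-125b-5p, its relative with more reads, 0.503%. In this pair miR-125a-5p is annotated at 24 nt, so that its annotated form counts as long, and miR-125b-5p at 22 nt. miR-212-3p had 9.12% and miR-132-3p, the activity-regulated neuronal miRNA from the same cluster, 0.492%. In the let-7 family, which represses growth-related mRNAs, the shares ran from 4.75% for let-7b-5p and 2.65% for let-7i-5p to 0.382% for let-7a-5p and 0.212% for let-7f-5p.

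The kind of end also differed between miRNAs. Of the 40 labels with the most long reads, 33 had a hairpin. In 7 of them at least 90% of the long RPM was templated, and in 9 it was under 10%. miR-153-3p stood at 97.9% templated (97.5% to 98.2% over the libraries), miR-30c-5p at 94.1% (93.6% to 94.4%), miR-181a-5p at 93.1% and miR-342-3p at 89.4%. On the other side, miR-429-3p and miR-127-3p had 0% templated long reads, and let-7b-5p had 0.474% (0.349% to 0.577%). miR-26a-5p stood at 2.38% and miR-200a-3p at 2.68%. These shares depend on the next hairpin base, because an added U or A that equals it counts as templated. That base is T or A for miR-30c-5p, miR-153-3p and miR-181a-5p, and C or G for miR-429-3p, miR-127-3p and miR-26a-5p. It is C for miR-342-3p, and T for let-7b-5p and miR-200a-3p. miR-222-3p, with 62.3% templated, and its neighbour on the X chromosome miR-221-3p, with 23.9%, share a seed.

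The miR-30 reads were the largest single source. The 24 nt read of miR-30c-5p had 4743, 4635 and 4941 RPM in the 2M libraries and 4633, 4976 and 5468 RPM in the 18M libraries. The ages overlapped, and the mean was 4773 ± 155.3 at 2M and 5026 ± 420 at 18M (SD, n = 3; limma log2 change 0.07 ± 0.14 SE, adjusted p = 0.869). Its hairpins Mir30c-1, at chr4:120769534-120769622 on the minus strand within Nfyc and outside its exons, and Mir30c-2, at chr1:23291701-23291784 on the plus strand in an exon of Gm27028, both go on with TGTG after the annotated end, so the added T fits either. The tailed forms of this miRNA were much rarer. The 25 nt read with a further T had 67.1 to 86.9 RPM, and the 24 nt read ending in an untemplated A had 58.4 to 70.5 RPM.

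miR-30e-5p and miR-30a-5p had the same form of end. The 24 nt read of miR-30e-5p, whose hairpin lies at chr4:120772606-120772697 near Mir30c-1, had 1925, 1752 and 1717 RPM at 2M and 1686, 1626 and 1670 RPM at 18M. All 3 of the 18M values lay below the 2M values, by a limma log2 change of -0.11 ± 0.14 SE (adjusted p = 0.791). The read of miR-30a-5p, from chr1:23272269-23272339, had 1196 to 1359 RPM at 2M and 1170 to 1287 RPM at 18M. In both miRNAs the added bases were CT, the next hairpin bases, and 1 more T, untemplated, was seen in reads of 67.6 to 84 RPM for miR-30a-5p.

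miR-342-3p, from the hairpin at chr12:108658620-108658718 within Evl, ended in a templated C in its main long read. That read had 875, 1003 and 771 RPM at 2M and 640, 990 and 796 RPM at 18M. The miRNA's long-read share was 41.9%, 42.8% and 46% at 2M and 34.5%, 36.7% and 34.8% at 18M, so that the ages did not overlap. Shares did not overlap between the ages in 40 of the 224 labels tested. The change of miR-342-3p was not called (log2 change of the ratio of long to remaining reads -0.50 ± 0.16 SE, limma adjusted p = 0.248).

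miR-138-5p, a miRNA of neuronal dendrites, has 2 hairpins whose next bases differ, so its long reads show the hairpin they match. The mature sequence with the next 4 hairpin bases in capitals reads as follows.
Mir138-1, chr9:122682876-122682974, plus strand: agctggtgttgtgaatcaggccgTTGC
Mir138-2, chr8:94324311-94324381, plus strand: agctggtgttgtgaatcaggccgACGA

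The 24 nt read ending in T, the Mir138-1 form, had 1424, 1278 and 911 RPM at 2M and 1167, 1611 and 1936 RPM at 18M. The read ending in A, the Mir138-2 form, had 790, 599 and 591 RPM at 2M and 588, 896 and 778 RPM at 18M. Mir138-2 overlaps an exon of C78859, and Mir138-1 lies in no annotated gene of its strand. Of the reads that match a single hairpin, Mir138-1 took 71.1% ± 3.21 at 2M and 72.7% ± 4.18 at 18M (exact permutation p = 0.7). An untemplated T or A after the mature end would be read as either of these forms and cannot be told apart from it.

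The same could be done for other miRNAs with more than 1 hairpin. In all, 44 members of 18 labels, with 3264 RPM, matched a single hairpin, and 8 labels had members of 2 hairpins. Mir29b-2 took 95.6% to 98.9% of such miR-29b-3p reads, Mir218-2 took 90.9% to 94.1% of those of miR-218-5p, and Mir16-1 took 79.9% to 84.2% of those of miR-16-5p. These are shares of matching reads and not of the output of each hairpin. Mir29b-2 goes on with T and Mir29b-1 with C, so an untemplated T on a miR-29b-3p read from either would be counted for Mir29b-2. For miR-26a-5p the Mir26a-2 share was 60.4%, 57.6% and 58.4% at 2M and 52.5%, 50% and 51.7% at 18M, with no overlap. Its exact permutation p was 0.1, the smallest possible, and 0.8 after Benjamini-Hochberg adjustment over the 8 labels compared. That share rests on 2 reads with means of 1.86 and 1.52 RPM.

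miR-29b-3p reads varied widely between libraries of the same age. The 24 nt read with the T that only Mir29b-2 encodes had 541, 269 and 148 RPM at 2M and 646, 252 and 528 RPM at 18M. The read with an A that neither hairpin encodes had 253, 153 and 214 RPM at 2M and 583, 203 and 376 RPM at 18M. Both ages overlapped in each. The hairpin Mir29b-1 lies at chr6:31063023-31063093 and Mir29b-2 at chr1:195037040-195037120.

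The tailed reads of let-7b-5p and miR-26a-5p shared the tail AT. The let-7b-5p read with AT had 247 to 319 RPM at 2M and 269 to 356 RPM at 18M, and the read ending in TT, of which the first T is templated so that its tail is a single T, had 201 to 250 RPM and 217 to 327 RPM. The miR-26a-5p read with AT had 63.2 to 174 RPM at 2M and 136 to 181 RPM at 18M, and its TT read, with both bases untemplated, 91.2 to 166.2 RPM and 122.4 to 148.9 RPM. The ages overlapped in all 4 reads. The miR-9-5p read with an added A, which its hairpins do not encode, had 234.5, 101.7 and 148.7 RPM at 2M and 184.7, 307.5 and 206.3 RPM at 18M. The miR-200a-3p read ending in TA had 352, 347 and 373 RPM at 2M and 276, 375 and 193 RPM at 18M. These 2 overlapped as well. Across the let-7 family, 9 of 22 labels had a member, with 150 members, and long reads made up 1.33% to 1.59% of its RPM at 2M and 1.32% to 1.47% at 18M.

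miR-451a, the erythroid miRNA that is cut by Ago2 and not by Dicer, had long reads that followed its hairpin at chr11:78073170-78073241. Its 9 members were 97.8% templated. The 25 nt read had 85.9, 194 and 211 RPM at 2M and 121, 22 and 63.5 RPM at 18M, and the 26 nt read 99.9, 118 and 165 RPM at 2M and 106, 50.2 and 110 RPM at 18M. The ages overlapped in both. The 25 nt read had a limma log2 change of -1.44 ± 0.58 SE with an adjusted p of 0.428, and of -0.79 without 18M replicate 2. In that library the summed RPM of the erythrocyte markers was 1307, against 2469 to 3689 in the other libraries. The list names 5 miRNAs, for which 4 labels were found. It includes miR-451a itself, with a mean of 1854 RPM, so the sum is not independent of these reads. The part of the erythrocyte markers in this difference was not tested. The long-read share of miR-451a was 15.3% to 18.5% at 2M and 10.8% to 16.5% at 18M.

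Mirtrons and other miRNAs made without Drosha were rich in long reads as a list. Of 19 labels, 10 had a member, with 42 members, and long reads made up 11.3% to 12.8% of their RPM, against 4.9% to 5.43% of all 5p arms and 2.29% to 2.65% of all 3p arms. miR-702-3p was at 55%, miR-3102-3p at 30.3%, miR-668-3p at 19.4%, miR-320-3p at 13.2% and miR-484 at 2.03%. In this list miR-668-3p and miR-1981-5p are annotated at 24 nt, so that their annotated forms count as long. Of the 10 labels tested for age, 0 were called by limma, 1 had a higher and 0 had a lower share at 18M at an unadjusted p under 0.05, where 12.9% of all 224 miRNAs tested passed that threshold in either direction.

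miR-7a-5p and miR-7b-5p stood apart in 2M replicate 1. The long-read share of miR-7a-5p was 19.4% in that library and 50.2% and 44.5% in the other 2M libraries, with 46.6%, 42.5% and 46.1% at 18M. The total of the miRNA was 1397 RPM in 2M replicate 1 and 254 to 314 RPM in the other libraries, while its long reads were 270 RPM there and 113 to 139 RPM elsewhere. miR-7b-5p had 821 RPM in 2M replicate 1, against 118.2 to 143.7 RPM, and a long-read share of 18.8%, against 39.6% to 48.1%. The share of 41.5% given above for miR-7a-5p is therefore a mean that this library lowers.

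The comparison of 18M with 2M over single reads called no member. limma, fitted to all 16220 reads with a mean of at least 1 RPM on log2(RPM + 1), gave 0 of 1716 members an adjusted p under 0.05 (smallest 0.0823), where 0.123% of all reads tested were called. At an unadjusted p under 0.05 there were 149 members, or 8.68%, of which 60 were higher and 89 lower at 18M, against 10.8% of all reads. The balance between directions rested on single libraries: it was 99 higher and 72 lower without 2M replicate 1, 64 and 61 without 2M replicate 3, and 66 and 51 without 18M replicate 1. Without 18M replicate 3 there were 88 such members, 41 higher and 47 lower. edgeR called 0 members. DESeq2 on the recovered reads called 9, of which 5 were higher and 4 lower at 18M, where 1.43% of all reads were called. The ages did not overlap for 227 members, or 13.2%, against 17.1% of all reads. The median log2 change was -0.023 for the members and 0.0056 for all reads tested.

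The reads named here had the largest differences in mean RPM, in each direction, among the members at an unadjusted p under 0.05. The 25 nt read of miR-181a-5p had 547, 361 and 485 RPM at 2M and 642, 765 and 705 RPM at 18M, with all 18M libraries higher (log2 change 0.62 ± 0.20 SE, limma adjusted p = 0.33). The miR-429-3p read with the tail AG had 43.8, 42.8 and 48.3 RPM at 2M and 102, 110 and 62.9 RPM at 18M (0.97 ± 0.24 SE, limma adjusted p = 0.222, DESeq2 adjusted p = 0.0289). The 26 nt read of miR-138-5p with the tail AT had 33.9, 30.3 and 33 RPM at 2M and 49.7, 58.4 and 74.9 RPM at 18M (0.87 ± 0.20 SE, limma adjusted p = 0.192, DESeq2 adjusted p = 0.0184). In these 3 reads the ages did not overlap, and in the limma fit none was called.

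Among lower values at 18M, the largest difference in mean RPM was that of the annotated form of miR-125a-5p. This 24 nt read, from the hairpin at chr17:17830812-17830879 in an exon of Spaca6, had 1691, 1690 and 1732 RPM at 2M and 1013, 1488 and 769 RPM at 18M (log2 change -0.70 ± 0.24 SE, limma adjusted p = 0.352). All 18M libraries were lower, and they varied more among themselves than the 2M libraries. A read of miR-23b-3p had 965, 999 and 938 RPM at 2M and 657.2, 876.5 and 682.5 RPM at 18M (-0.40 ± 0.17 SE, limma adjusted p = 0.45).

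Reads were also added up by miRNA, length class and last base. Of 2434 such groups, 633 were long, and 0 of them were called by limma, where 0.329% of all groups were called. At an unadjusted p under 0.05 there were 72 long groups, or 11.4%, of which 21 were higher and 51 lower at 18M, against 14% of all groups. That split was 33 higher and 37 lower with median-of-ratios scaling in place of RPM and 30 and 44 with edgeR, and without 18M replicate 3 it was 12 and 36. DESeq2 called 17 long groups, of which 9 were higher and 8 lower, where 4.64% of all groups were called, and edgeR called 0. These sums take in long reads below 1 RPM.

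The groups with the smallest p in each direction were small. Long reads of miR-3102-3p, a mirtron product, ending in G had 33.8, 35.5 and 32.6 RPM at 2M and 52.6, 48.3 and 57.7 RPM at 18M (log2 change 0.62 ± 0.14 SE, limma adjusted p = 0.112), and those ending in A had 3.39 to 4.62 RPM and 6.64 to 8.27 RPM. Its long-read share was 30% ± 2.59 at 2M and 30.5% ± 1.35 at 18M. Long miR-29b-2-5p reads ending in T had 1.95 to 2.29 RPM at 2M and 3.79 to 5.07 RPM at 18M (limma adjusted p = 0.0936). The long-read share of miR-29b-2-5p was 12.5% to 13% at 2M and 11.7% to 13.9% at 18M. In the other direction, miR-219a-5p, an oligodendrocyte-related miRNA, had long reads ending in G at 7.67, 9.81 and 8.91 RPM at 2M and 3.06, 4.35 and 3.97 RPM at 18M (-1.03 ± 0.17 SE, limma adjusted p = 0.0645). Long reads of miR-487b-3p ending in T had 5.48 to 6.38 RPM and 2.23 to 3.24 RPM, and those of miR-153-3p ending in C had 4.53 to 5.58 RPM and 2.65 to 2.94 RPM. The ages did not overlap in any of these 6 groups, which were chosen for their p, and DESeq2 called all 6. The RPM of a group moves with the level of the whole miRNA as well. The long-read share overlapped between the ages for miR-219a-5p (0.369% to 1.17% and 0.248% to 0.395%) and miR-487b-3p (0.151% to 0.19% and 0.0981% to 0.154%). It did not for miR-153-3p (23.6% to 24.7% and 17.9% to 22.3%).

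For the long-read share of each miRNA, 224 labels with at least 10 RPM were tested by limma on the log2 ratio of long to remaining reads, and 0% were called (smallest adjusted p 0.248). At an unadjusted p under 0.05 there were 29, or 12.9%, of which 10 were higher and 19 lower at 18M. The count was 17 without 18M replicate 1 and 19 without 18M replicate 3. In all, 91 of the 224 labels had a higher ratio at 18M, with a median log2 change of -0.051. The 5p arms gave 5 higher and 11 lower of 120 labels tested at that unadjusted threshold, and the 3p arms 5 higher and 7 lower of 101. None of the 9 let-7 labels passed it.

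The 3 labels with the smallest p among the higher shares were all of the miR-181 family, which is known from neurons and lymphocytes. The share of miR-181c-5p was 24%, 18.4% and 26.9% at 2M and 33.6%, 34.5% and 35.8% at 18M (log2 change 0.83 ± 0.20 SE, limma adjusted p = 0.248). That of miR-181a-5p was 11%, 7.32% and 10.1% at 2M and 13.3%, 15.2% and 13.8% at 18M (0.66 ± 0.19 SE, limma adjusted p = 0.248). That of miR-181d-5p was 19.4%, 13.3% and 15.4% at 2M and 21.8%, 21.7% and 22.9% at 18M (0.59 ± 0.18 SE, limma adjusted p = 0.248). The ages did not overlap in these 3 labels, which were chosen for their p, nor did they in 40 of all 224 labels tested. miR-181b-5p, whose annotated form is already 24 nt long, had 12.3% ± 2.47 at 2M and 13.3% ± 1.07 at 18M, and its ages overlapped (0.14 ± 0.18 SE, limma adjusted p = 0.845).

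The miR-181a-5p reads show where that share lay. Its long reads summed to 1232, 900 and 1175 RPM at 2M and 1382, 1630 and 1453 RPM at 18M, while all its reads summed to 11217, 12292 and 11581 RPM and to 10429, 10703 and 10557 RPM. Both its hairpins, Mir181a-1 at chr1:137966455-137966541 and Mir181a-2 at chr2:38852735-38852810, go on with TTGG. The 24 nt read with 1 templated T had 575, 459 and 584 RPM at 2M and 647, 735 and 654 RPM at 18M. The 26 nt read with 1 more T, untemplated, had 22.3 to 40.7 RPM and 33.8 to 47.9 RPM, and its ages overlapped.

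Among lower shares at 18M, miR-182-5p had 28.6%, 31.5% and 31.1% at 2M and 22.1%, 24.4% and 23.2% at 18M (log2 change -0.53 ± 0.15 SE, limma adjusted p = 0.248). Its 25 nt read, the annotated form, had 353, 411 and 425 RPM at 2M and 290, 604 and 252 RPM at 18M, which overlapped. miR-598-3p had 12.8% ± 0.277 at 2M and 9.94% ± 0.703 at 18M, and miR-8114, a rare miRNA of 20.5 RPM in all, 16.8% ± 0.586 and 12.9% ± 0.81, both with a limma adjusted p of 0.248. The ages did not overlap in the shares of these 3 labels, which were also chosen for their p.

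Most of the long RPM carried the usual seed of its miRNA. Of the 1716 members, 1168 began so that they carried the main seed of their label, and these held 94.6% to 95.2% of the members' RPM over the 6 libraries. The 6mer seed viability that the authors assigned to each read is the mean survival, in percent, of 3 mouse cell lines given an siRNA that carries the seed. For reads with the main seed it was 76.4% for miR-30a-5p, miR-30c-5p and miR-30e-5p, 86.7% for miR-181a-5p, 79.4% for miR-125a-5p and 34.5% for miR-138-5p, and reads with a shifted or extended 5′ end have other values. Weighted by RPM over all members, it was 64.9%, 65.3% and 66.6% for the long reads of the 2M libraries and 65%, 64.3% and 63.6% for the 18M libraries. The means were 65.6% ± 0.894 and 64.3% ± 0.672, and the ages overlapped (exact permutation p = 0.2).

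A second annotation column called 116 members, with 2586 RPM, an mRNA or another class of RNA in place of a miRNA. The tissue was checked with marker miRNAs: the 5 neuronal ones summed to 211301 to 268408 RPM, and the liver miRNA miR-122-5p had 6.17 to 7.68 RPM. The 2 oligodendrocyte markers summed to 4204 to 7050 RPM and the 3 muscle markers to 195.4 to 355.3 RPM. The 6 markers of microglia and immune cells summed to 3929, 4111 and 3776 RPM at 2M and 3285, 2834 and 3402 RPM at 18M. The ages did not overlap in this sum, as in 17.1% of all single reads tested. Most of the sum was miR-150-5p, with a mean of 2659 RPM. miR-142a-3p had 359 RPM, miR-146a-5p 347 RPM and miR-223-3p 63.2 RPM. The part of these markers in the differences given above was not tested.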

How the data were processed

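Small RNAs from Ago pull-downs were sequenced in 3 libraries of 2M and 3 of 18M mice. Nothing in the labels names shared batches, and 3 libraries per age limit what could be detected. According to the methods and the labels, the authors trimmed reads (Trim Galore, version not given in the sources used here), collapsed identical reads, removed rare ones, assigned miRNA names with the SPOROS pipeline and deposited the table in RPM. The authors also gave each read a 6mer seed viability score, the mean percent viability for that seed. Read length was counted from each sequence. Every RPM value (100%) was a whole number of reads to within 0.02 read, so whole reads were recovered, and no pair of libraries was a duplicate (chi-square per degree of freedom at least 17.2). The number of per-sample columns outside the 6 libraries was 0.

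The members and gene lists were chosen with earlier results of these data known. A member was matched to the RefSeq hairpins (GRCm38.p6) of its label by its longest exact run, of at least 16 nt, with at most 4 bases left over at an end. The coordinates were set against GENCODE M21 exons of the same build. The authors' genome build is not used. Age was tested in R 4.3.3 with limma 3.58.1, its eBayes step with a trend, on log2(RPM + 1) over 16220 reads and 2434 groups with a mean of at least 1 RPM, and on log2 of (long RPM + 0.5)/(remaining RPM + 0.5) over 224 miRNAs, each adjusted by Benjamini-Hochberg and called under 0.05. Changes on this log2 scale understate the change of low reads. Groups were taken from the sample titles. Per-library measures were compared with exact two-sided permutation tests in Python 3.11.15 (numpy 2.4.6, pandas 2.3.3). Alternatives were edgeR 4.0.16 (quasi-likelihood) and DESeq2 1.42.0 on recovered reads, changed pseudocounts, filters, scaling and length limits, and each library left out in turn. The limma fits were also run on simulated data, with changes larger than those named here. That run does not show whether changes of the size named here could be detected. Named reads and miRNAs were the most abundant, those with the highest and lowest share, those with the smallest p or largest difference in each direction, and those of fixed lists. The labels number the samples of an age but do not say that each is a separate mouse, so p-values measure the spread between these libraries, which may be technical.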

Additional observations from a re-analysis of the deposited data

How the results depend on the processing

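With reads of 25 nt or more, the age difference of the long-read share was 0.0239, that of the last base A 0.12 and that of seed viability 0.343, against -0.0282, -1.06 and -1.25, all in percentage points. With each member counted once the viability difference was 0.0106. Without the 5 miRNAs with the most long reads, the age difference of A was 0.456, and long minus shorter reads gave 0.363 for A and 1.72 for C. Leaving out 1 library gave -0.109 to 0.058 for the share, -0.526 to 0.146 for the last base G by age (above 0 without 2M replicate 2 and without 18M replicate 3), and for long minus shorter reads 19.8 to 20.6 for T, -12.2 to -11.5 for G, -6.13 to -5.7 for C and -2.98 to -2.31 for A, where 5 libraries cannot reach the threshold. Calls of members numbered 9 and of groups 17 under DESeq2 and 0 under every other alternative run. For shares there was 1 call at a pseudocount of 5 (miR-298-5p) and 0 to 1 when a library was left out (miR-221-5p without 2M replicate 1). The single reads and groups named for their p kept their direction under all alternatives run, and 2 of those reads and all 6 groups were called by DESeq2 only.

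Same-numbered libraries did not vary together (correlations of -0.10, -0.09 and -0.11 over members), so the numbers were not taken as pairs. With the replicate number as a block, the share difference was -0.0282 (exact sign-flip p = 0.75, smallest possible 0.25), and 0 reads, 0 groups and 0 shares were called.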
